A study of Mus musculus with 48 samples.

Results

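Hepatokines are proteins that the liver releases into the blood to act on other tissues. The genes described here are 9 hepatokine and secreted-signal genes, Fgf21, Gdf15, Inhbe, Ahsg, Fetub, Afm, Lect2, Enho and Il6ra, taken by gene symbol from the joined table of deposited read counts; all 9 were found, of 29221 genes in all. Every value below is a gene's read count scaled to a common library size (CPM) by TMM factors, the trimmed means of M-values. The RNA came from whole livers of adult mice that all carried a floxed Pparg gene, which encodes the nuclear receptor PPARγ, and that all received an AAV8-TBG virus after 16 weeks on diet. AAV8 is an adeno-associated virus and TBG is a promoter active in hepatocytes, so virus with Cre was meant to delete Pparg in hepatocytes (AAV8-TBG-Cre, the knockout label), and control mice received the virus with no Cre (AAV8-TBG-null). Ages were not given in the labels used here.

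There were 48 libraries in 10 groups. In males, controls and labelled knockouts were each measured on a high fat (HF) diet fed for 34 weeks and after 18 weeks of the HF diet followed by 16 weeks of a diet with fat, cholesterol and fructose (HFCF), with 6 libraries in each of these 4 groups. In females, controls and labelled knockouts were each measured on a low fat (LF) diet fed for 34 weeks, on the HF diet for 34 weeks, and after the same 18 weeks of HF and 16 weeks of HFCF diet, with 4 libraries in each of these 6 groups. There was no LF group in males among the samples used here. The labels give each library a number of its own but do not state that these are separate animals, and p-values measure the spread between these libraries. In whole liver, fewer cells of a type and less RNA per cell cannot be told apart.

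Fgf21, Gdf15 and Inhbe encode hormones of the FGF and TGF-β families whose transcription is known to rise when the transcription factors ATF4 and CHOP are switched on by amino acid shortage or protein folding stress, a program called the integrated stress response; Fgf21 is also a known target of PPARα in fasting and of ChREBP after sugar intake. Ahsg, Fetub, Afm and Lect2 encode proteins that hepatocytes secrete constitutively into plasma. Enho encodes adropin, a peptide linked to glucose and lipid metabolism, and Il6ra encodes the binding subunit of the interleukin-6 receptor, which hepatocytes carry on their surface and which proteases can release as a soluble carrier.

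Libraries held 15338239 to 22072884 reads on genes. The liver label was checked against hepatocyte genes: all 9 measured markers, among them Alb and Apoa1, had reads in every group, and their summed level ran from 47217 to 131297 CPM over the libraries. The knockout label was checked on Pparg, which was not lower in any labelled knockout group: in HFCF males its mean was 32.0 CPM in controls and 55.9 CPM in labelled knockouts, and in HF females 18.6 and 28.8 CPM. By edgeR Pparg was called higher in labelled knockouts in HFCF males (log2 change 0.806, adjusted p 0.000805). It was called higher in HFCF females too (0.975, adjusted p 0.0422), but in 1 of 8 fits with 1 library left out. It was not called in the other labelled knockout comparisons. The counts cover the whole gene, and reads of a deleted exon were not counted apart. Because Pparg goes against the label, the groups are called labelled knockouts throughout. Cidec, a lipid droplet gene known as a PPARγ target, did differ, with means of 133.8 CPM in HF control males and 5.24 CPM in HF males labelled knockout. It was also called lower in HFCF males, and in all 12 fits there with 1 library left out. In HFCF females Cidec was called lower by edgeR (adjusted p 0.0422), but in 1 of 8 such fits (adjusted p up to 0.22). That 1 fit left out labelled knockout replicate 1. Cidec was not called in HF females, where control replicate 1 carried much of the control mean (log2 change -2.56, adjusted p 0.522, by edgeR). Nor was it called in LF females, at 6.96 and 6.12 CPM (log2 change -0.18, adjusted p 1, by edgeR). In LF and HF females neither Pparg nor Cidec therefore passed a test in the direction of the label. Cidea, also a label check, was called lower in labelled knockout males on both diets. Its HF means were 20.4 CPM in controls and 0.311 CPM in labelled knockouts (edgeR adjusted p 5.17e-08). On HFCF they were 20.6 and 0.459 CPM (edgeR adjusted p 5.94e-07). The call held in all 12 fits with 1 library left out on either diet. In females Cidea had too few reads to be tested between labelled knockouts and controls. Female HF control replicate 1 stood apart from the other 3 of its group, with summed stellate cell and fibroblast markers of 842.5 CPM against at most 360.6 CPM and Cidec of 56.4 CPM against at most 14.1 CPM. Female HFCF labelled knockout replicate 1 had summed hepatocyte markers of 120270 CPM against 67445 to 85874 CPM in the other 3, and cholangiocyte markers of 245.1 CPM against 461.5 to 554.1 CPM. Male HFCF control replicate 1 had cholangiocyte markers of 158.2 CPM against 468.3 to 555.1 CPM in the other 5. Where a member is called only without 1 of these libraries, the result is given with and without it. Calls lost with a library left out are given as counts of fits, and the library is not named in each case.

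Sequence before the RefSeq starts of Fgf21 and Inhbe is shown here because these members are known to respond to ATF4 and CHOP. The 250 bases before each start site in RefSeq (build GRCm38.p6) were searched on both strands for TGATGNAAN, the response element bound by C/EBP and ATF proteins including ATF4 and CHOP. Of the 9 members, 8 had a promoter entry, and Enho had none. The motif was present in 3.44% of 32851 promoters and in 2 of the 8 members, Fgf21 and Inhbe. The other 6, Gdf15 among them, held none in this window. The sequences run 5′ to 3′ on the gene's strand, and the capitals mark the motif matches. The Fgf21 stretch (chr7:45615491-45615740, minus strand) holds its match 140 to 132 bases before the start. The Inhbe stretch (chr10:127352012-127352040, minus strand) is the match 182 to 174 bases before the RefSeq start with its flanks. That RefSeq start lies 2563 bp inside the Inhbe gene as the deposited tables define it, so the whole Inhbe window is sequence of the counted gene under that definition.
Fgf21: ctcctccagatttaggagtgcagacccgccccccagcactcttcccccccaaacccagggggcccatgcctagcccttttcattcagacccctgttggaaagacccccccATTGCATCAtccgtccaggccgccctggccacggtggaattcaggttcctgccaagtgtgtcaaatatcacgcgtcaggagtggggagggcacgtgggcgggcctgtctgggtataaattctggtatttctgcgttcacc
Inhbe: catcctctttCTTGCATCAtgcatgtcca
A match is a string of letters and says nothing about binding in these livers, and the absence of one says only that the letters are not in that window.

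By the tables' coordinates (GRCm38), Fgf21 lies at chr7:45613886-45615490 and Gdf15 at chr8:70629393-70632456, both on the minus strand. Inhbe, the activin βE subunit gene, lies at chr10:127348857-127354411 on the minus strand, 1910 bp from its relative Inhbc. Ahsg (chr16:22891277-22899449) and Fetub (chr16:22918334-22939778), which encode the paired cystatin-family proteins fetuin-A and fetuin-B, are neighbours on the plus strand 18884 bp apart, and Hrg, another member of that family, follows Fetub after 11293 bp. Afm lies at chr5:90518932-90553543 on the plus strand, 10024 bp from its albumin-family relative Afp. Lect2 lies at chr13:56542464-56548502, Enho at chr4:41638144-41640324 and Il6ra at chr3:89864059-89913196, all on the minus strand. The libraries were not strand specific, so reads in overlapping genes could not be told apart by strand. Annotated genes overlap Enho (Dnaic1 and Gm12406), Ahsg, Inhbe, Il6ra and Afm. The overlapping genes had at most 17 reads in any library at Enho, where Enho itself had as few as 11, so the lowest Enho values are uncertain; at the other 4 genes the overlapping gene had at most 86 reads against at least 435 for the member.

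Measured per kilobase of gene length over all 48 libraries, the members spanned a wide range. Ahsg was the 18th most abundant of 13438 genes ranked, at 2481 CPM per kb. Fetub (206 CPM per kb), Lect2 (143) and Afm (72.2) followed at ranks 223, 325 and 663. Inhbe stood at rank 1447 with 29.9 CPM per kb. Fgf21 (12.5), Gdf15 (8.64), Enho (7.40) and Il6ra (6.72) lay between ranks 3039 and 4859. Fgf21 was measured from 56 to 635 reads in a library, Gdf15 from 38 to 603 and Enho from 11 to 559, against at least 1520 for each of Ahsg, Fetub, Afm and Lect2, so the first 3 carry the larger counting error.

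**Figure D1:**
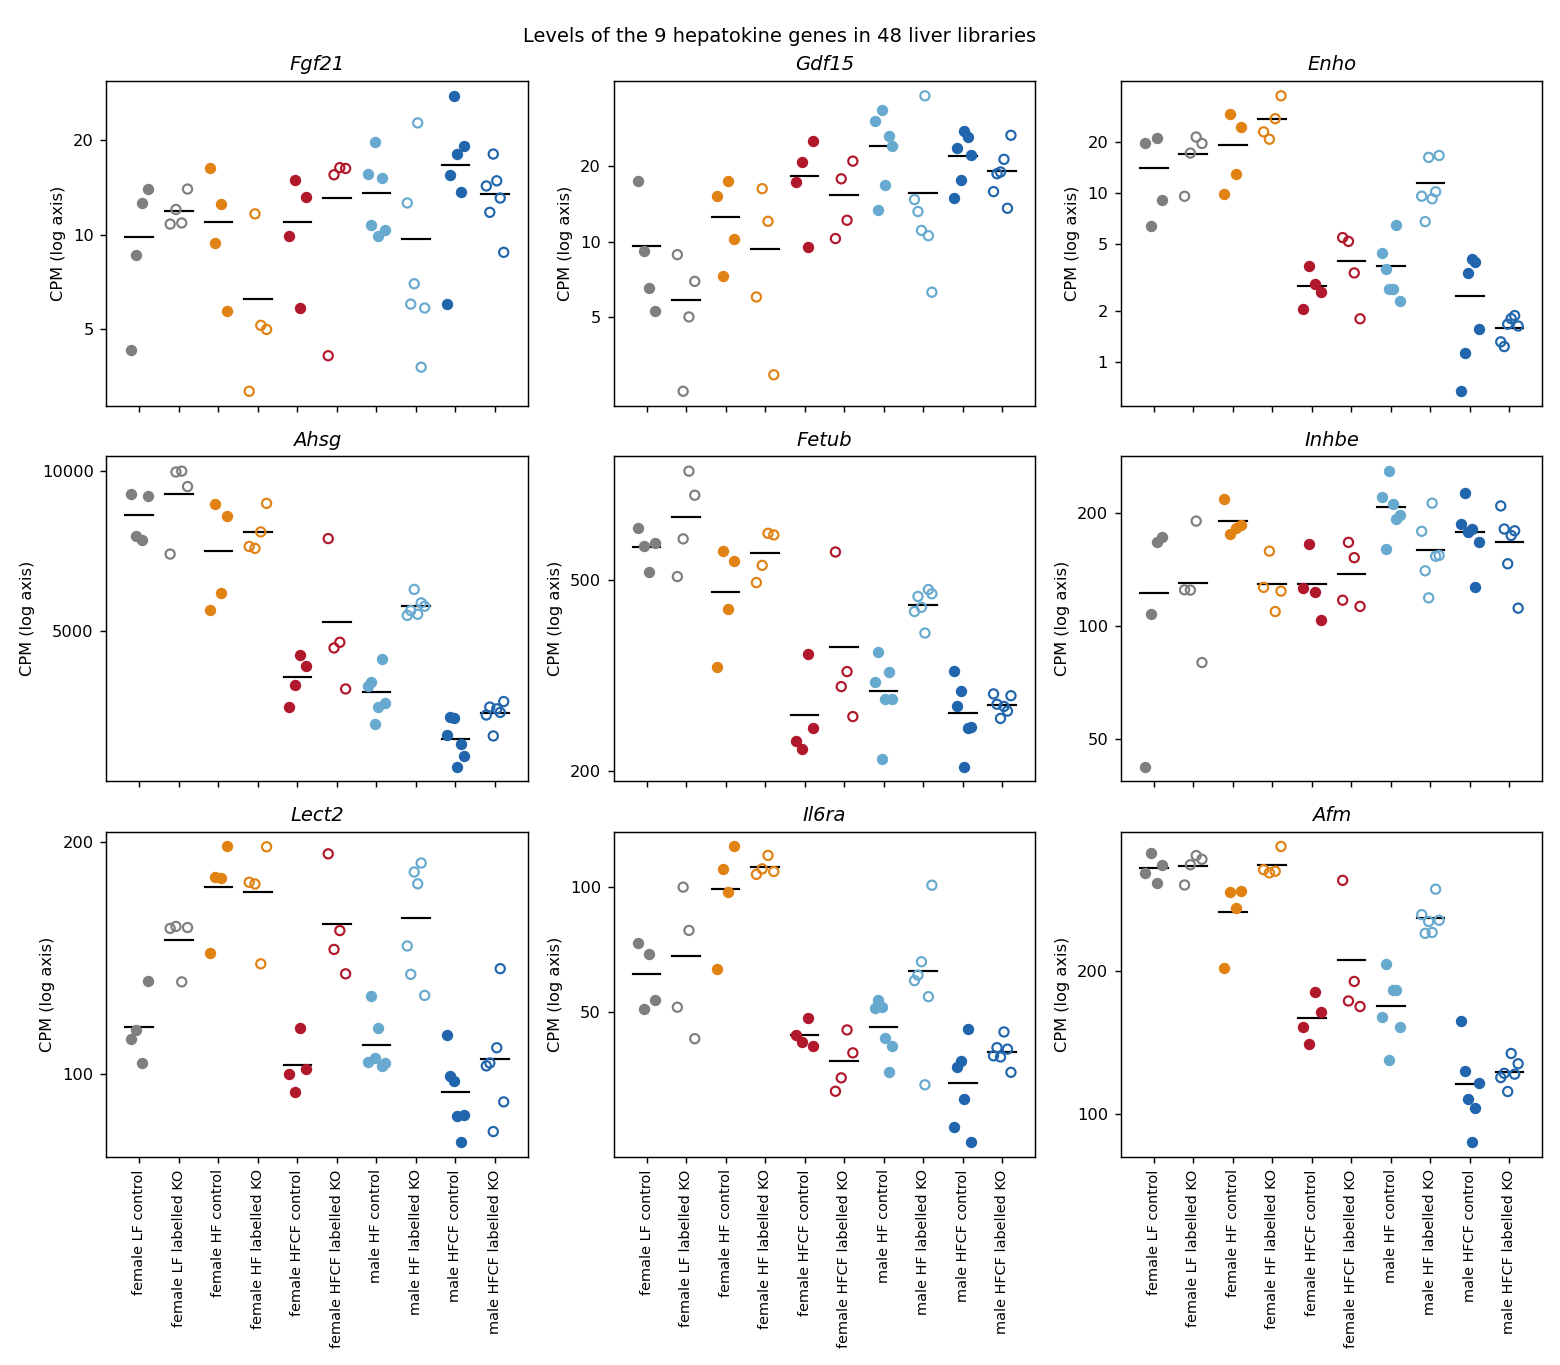
Each panel plots 1 gene in CPM on a log axis against the 10 groups; points are libraries (filled for controls, open for labelled knockouts) and black lines are group means. Enho spans the widest range, from 0.673 to 37.4 CPM, and is low in the HFCF groups of both sexes, while Fgf21 points overlap between all groups.

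Fgf21, a hormone that acts on fat and brain through FGF receptors and the co-receptor β-Klotho, had overlapping ranges in all 10 groups. In HF males Fgf21 measured 9.93 to 19.7 CPM (median 12.9) in controls and 3.79 to 22.7 CPM (median 6.49) in labelled knockouts. In HFCF males Fgf21 measured 6.00 to 27.6 CPM (median 16.8) in controls and 8.78 to 18.04 CPM (median 13.7) in labelled knockouts. The male ranges overlapped within both diets, and labelled knockout replicate 4 on HF, at 22.7 CPM, was the highest of its group. In LF females Fgf21 was 4.30, 8.63, 12.6 and 13.9 CPM in the 4 controls and 10.8, 12.02, 10.9 and 13.96 CPM in the 4 labelled knockouts. In HF females Fgf21 was 16.3, 9.41, 12.5 and 5.70 CPM in the 4 controls and 3.17, 11.6, 5.14 and 4.99 CPM in the 4 labelled knockouts. In HFCF females Fgf21 was 9.87, 14.9, 5.82 and 13.2 CPM in the 4 controls and 4.12, 15.5, 16.3 and 16.2 CPM in the 4 labelled knockouts. The female ranges overlapped as well; on HFCF, labelled knockout replicate 1 was low and the other 3 lay together. Group means ran from 16.7 ± 7.11 CPM (SD, n = 6) in HFCF control males to 6.24 ± 3.71 CPM (SD, n = 4) in HF labelled knockout females, and none of the 9 steps between neighbours in that order exceeded the larger SD of the pair.

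Gdf15, a hormone that lowers food intake through the hindbrain receptor GFRAL and is released by many stressed cells, was higher on average in the male groups than in the females on LF or HF. Gdf15 ranged over 13.4 to 33.5 CPM (median 25.2) in HF control males and over 6.29 to 38.1 CPM (median 12.1) in HF labelled knockout males. Gdf15 ranged over 14.9 to 27.6 CPM (median 22.9) in HFCF control males and over 13.6 to 26.5 CPM (median 18.8) in HFCF labelled knockout males. The same HF labelled knockout male, replicate 4, was far above the other 5 of its group at 38.1 CPM. LF control females had 17.4, 9.22, 6.53 and 5.32 CPM of Gdf15, and LF labelled knockout females 8.88, 2.54, 5.02 and 6.95 CPM. HF control females had 15.2, 7.31, 17.5 and 10.3 CPM of Gdf15, and HF labelled knockout females 6.02, 16.2, 12.1 and 2.95 CPM. HFCF control females had 17.3, 20.8, 9.53 and 25.1 CPM of Gdf15, and HFCF labelled knockout females 10.3, 17.8, 12.2 and 20.9 CPM. The LF females held the lowest library, at 2.54 CPM, and the control and labelled knockout ranges overlapped on every diet. The order of means began with HF control males at 24.1 ± 7.74 CPM (SD, n = 6) and ended with LF labelled knockout females at 5.85 ± 2.71 CPM (SD, n = 4), a ratio of 4.12, and no step between neighbours exceeded the larger SD.

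Inhbe encodes a subunit of activin E, a hepatocyte signal to adipose tissue, and its group means differed by 1.69 times at most. Among HF males, controls spanned 161 to 259 CPM (median 205) of Inhbe and labelled knockouts 119 to 213 CPM (median 154). Among HFCF males, controls spanned 127 to 226 CPM (median 180.1) of Inhbe and labelled knockouts 112 to 209 CPM (median 177). Ranges of the 4 male groups overlapped. On LF, the 4 control females gave 42.2, 108, 168 and 172 CPM of Inhbe and the 4 labelled knockout females 125, 125, 191 and 80.01 CPM. On HF, the 4 control females gave 218, 176, 182 and 187 CPM of Inhbe and the 4 labelled knockout females 127, 158, 109 and 124 CPM. On HFCF, the 4 control females gave 126, 166, 124 and 104 CPM of Inhbe and the 4 labelled knockout females 117, 167, 152 and 113 CPM. LF control replicate 1, at 42.2 CPM, was the lowest Inhbe value of the study, and the 4 HF control females lay above the 4 HF labelled knockout females. HF control males had the highest mean, 207 ± 32.7 CPM (SD, n = 6), and LF control females the lowest, 123 ± 61.05 CPM (SD, n = 4); no step between neighbours exceeded the larger SD.

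Ahsg encodes fetuin-A, an abundant plasma protein known to bind mineral and to inhibit the insulin receptor. In HF males Ahsg measured 3349 to 4436 CPM (median 3808) in controls and 5351 to 5988 CPM (median 5517) in labelled knockouts. In HFCF males Ahsg measured 2781 to 3446 CPM (median 3123) in controls and 3176 to 3686 CPM (median 3544) in labelled knockouts. Male labelled knockouts on HF all lay above the HF controls, whereas the HFCF groups overlapped. In LF females Ahsg was 9070, 7535, 7427 and 8985 CPM in the 4 controls and 6978, 9954, 9992 and 9347 CPM in the 4 labelled knockouts. In HF females Ahsg was 5467, 8658, 5891 and 8233 CPM in the 4 controls and 7212, 7152, 7681 and 8691 CPM in the 4 labelled knockouts. In HFCF females Ahsg was 3594, 3959, 4513 and 4303 CPM in the 4 controls and 7462, 4648, 4763 and 3892 CPM in the 4 labelled knockouts. Female group means were highest on LF and lowest on HFCF, where labelled knockout replicate 1 stood above the other 3. The means fell from 9068 ± 1424 CPM (SD, n = 4) in LF labelled knockout females to 3136 ± 272 CPM (SD, n = 6) in HFCF control males, and the 1 neighbouring step larger than both SDs was the last, from HFCF labelled knockout to HFCF control males.

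Fetub encodes fetuin-B, known as an inhibitor of the egg protease ovastacin and linked to glucose metabolism. Fetub ranged over 212 to 354 CPM (median 295) in HF control males and over 388 to 478 CPM (median 450.3) in HF labelled knockout males. Fetub ranged over 204 to 323 CPM (median 260.2) in HFCF control males and over 258 to 289.6 CPM (median 274) in HFCF labelled knockout males. As with Ahsg, the HF labelled knockout males lay wholly above the HF control males and the HFCF males overlapped. LF control females had 640.1, 589, 520.2 and 596 CPM of Fetub, and LF labelled knockout females 508, 609, 842 and 750.5 CPM. HF control females had 329, 574, 435 and 549 CPM of Fetub, and HF labelled knockout females 494, 536, 625 and 620.4 CPM. HFCF control females had 231, 222, 349.9 and 246 CPM of Fetub, and HFCF labelled knockout females 572, 299.9, 322 and 259.8 CPM. The HFCF labelled knockout replicate 1, at 572 CPM, lay within the range of the HF females and above the other 3 of its group. Group means spanned 678 ± 148 CPM (SD, n = 4) to 262 ± 59.2 CPM (SD, n = 4), and no neighbouring step exceeded the larger SD.

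Afm encodes afamin, a plasma carrier of vitamin E and of Wnt proteins. Among HF males, controls spanned 129.8 to 206 CPM (median 171) of Afm and labelled knockouts 240.2 to 298 CPM (median 255). Among HFCF males, controls spanned 87.3 to 157 CPM (median 112) of Afm and labelled knockouts 112 to 134 CPM (median 122). All 6 HF labelled knockout males exceeded all 6 HF controls, and the HFCF control replicate 1 was the highest of its group. On LF, the 4 control females gave 322, 355, 307 and 335 CPM of Afm and the 4 labelled knockout females 304, 335, 350.3 and 344 CPM. On HF, the 4 control females gave 203, 293, 272 and 295 CPM of Afm and the 4 labelled knockout females 327, 322, 325 and 366 CPM. On HFCF, the 4 control females gave 153, 140.1, 180.4 and 164 CPM of Afm and the 4 labelled knockout females 311, 173, 190.2 and 168 CPM. The 4 HF labelled knockout females exceeded the 4 HF controls, and on HFCF labelled knockout replicate 1 was again high. In the order of means, from 335 ± 20.8 CPM (SD, n = 4) in HF labelled knockout females to 116 ± 23.6 CPM (SD, n = 6) in HFCF control males, 2 of 9 neighbouring steps exceeded the larger SD, from LF to HF control females and from HFCF control females to HFCF labelled knockout males.

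Lect2, a secreted protein first known as a neutrophil attractant and later as a ligand of MET and TIE1, kept within a 1.85-fold range of group means. In HF males Lect2 measured 102 to 126 CPM (median 104) in controls and 126 to 188 CPM (median 162) in labelled knockouts. In HFCF males Lect2 measured 81.7 to 112 CPM (median 93.3) in controls and 84.2 to 137 CPM (median 103) in labelled knockouts. All 6 HF labelled knockout males lay above the 6 HF controls, and HFCF males overlapped. In LF females Lect2 was 111, 114, 103 and 132 CPM in the 4 controls and 154, 155, 132 and 155 CPM in the 4 labelled knockouts. In HF females Lect2 was 143, 180, 179 and 197 CPM in the 4 controls and 177, 176, 139 and 197 CPM in the 4 labelled knockouts. In HFCF females Lect2 was 100.1, 94.7, 115 and 102 CPM in the 4 controls and 193, 145, 154 and 135 CPM in the 4 labelled knockouts. On HFCF the 4 labelled knockout females lay above the 4 controls, whereas on HF the groups overlapped. HF control females had the highest mean, 175 ± 22.6 CPM (SD, n = 4), and HFCF control males the lowest, 94.8 ± 10.9 CPM (SD, n = 6); 1 of 9 neighbouring steps exceeded the larger SD, from LF labelled knockout to LF control females.

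Enho showed the widest range of the 9 genes, 17-fold between the highest and lowest group mean. Enho ranged over 2.31 to 6.48 CPM (median 3.12) in HF control males and over 6.76 to 16.6 CPM (median 9.85) in HF labelled knockout males. Enho ranged over 0.673 to 4.06 CPM (median 2.46) in HFCF control males and over 1.24 to 1.88 CPM (median 1.66) in HFCF labelled knockout males. All HF labelled knockout males lay above all HF control males. LF control females had 19.8, 6.41, 21.02 and 9.04 CPM of Enho, and LF labelled knockout females 9.54, 17.2, 21.4 and 19.6 CPM. HF control females had 9.80, 29.2, 12.9 and 24.5 CPM of Enho, and HF labelled knockout females 22.9, 20.7, 27.4 and 37.4 CPM. HFCF control females had 2.07, 3.69, 2.88 and 2.61 CPM of Enho, and HFCF labelled knockout females 5.44, 5.17, 3.36 and 1.80 CPM. All 8 HFCF females lay below all 16 LF and HF females. The mean was 27.1 ± 7.40 CPM (SD, n = 4) in HF labelled knockout females and 1.59 ± 0.261 CPM (SD, n = 6) in HFCF labelled knockout males. One step in the order exceeded the larger SD, from HF labelled knockout males down to HFCF labelled knockout females; above it lay these HF males and the 4 LF and HF female groups, and below it the HFCF groups and HF control males.

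Il6ra group means were highest in HF females. Among HF males, controls spanned 36.0 to 53.5 CPM (median 47.2) of Il6ra and labelled knockouts 33.5 to 101 CPM (median 60.5). Among HFCF males, controls spanned 24.5 to 45.7 CPM (median 34.02) of Il6ra and labelled knockouts 35.9 to 44.9 CPM (median 40.1). HF labelled knockout replicate 6 gave the highest male value, 101 CPM, and replicate 4 the lowest of its group. On LF, the 4 control females gave 73.5, 50.9, 68.8 and 53.6 CPM of Il6ra and the 4 labelled knockout females 51.4, 99.7, 78.5 and 43.2 CPM. On HF, the 4 control females gave 63.4, 110.3, 96.9 and 125 CPM of Il6ra and the 4 labelled knockout females 107, 110.3, 119 and 109 CPM. On HFCF, the 4 control females gave 44.02, 42.5, 48.5 and 41.5 CPM of Il6ra and the 4 labelled knockout females 32.4, 34.8, 45.4 and 39.98 CPM. Among the HF females, control replicate 1 lay below the other 7. Means ran from 111 ± 5.21 CPM (SD, n = 4) in HF labelled knockout females to 33.8 ± 7.98 CPM (SD, n = 6) in HFCF control males, and 3 of 9 neighbouring steps exceeded the larger SD, among them the step from HF control females to LF labelled knockout females.

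In HF males, labelled knockouts had more transcript of the plasma protein genes and of Enho than controls. Enho rose 3.08-fold, with a log2 change of 1.62 (SE 0.26, adjusted p 0.000508). The neighbouring fetuin genes rose by like amounts, Ahsg by 0.53 (SE 0.07, adjusted p 0.000162) and Fetub by 0.59 (SE 0.10, adjusted p 0.000631) on the log2 scale. Afm rose by 0.61 (SE 0.10, adjusted p 0.000433) and Lect2 by 0.54 (SE 0.10, adjusted p 0.00132). These 5 genes did not overlap between the groups, against 7.95% of all genes tested without overlap, and they stayed called in all 12 fits that left out 1 library. Inhbe fell by 0.38 on the log2 scale (SE 0.13, adjusted p 0.0482), with overlapping groups, and kept its call in 2 of the 12 fits (adjusted p up to 0.12); it was also lost with DESeq2 size factors (adjusted p 0.0501) and with all groups in one fit (0.248). The test is edgeR's quasi-likelihood F test with Benjamini-Hochberg adjustment over all genes tested, here and below, and a gene is called at an adjusted p under 0.05. So 5 of 9 members were higher and 1 lower, where 8.57% of all 14041 genes tested were higher and 9.88% lower. Shares of all genes called, here and below, are those of edgeR with all libraries. They are not given here for DESeq2's Wald test, the other alternatives or the fits with a library left out.

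Fgf21, Gdf15 and Il6ra did not pass the test in HF males with all libraries, at log2 changes of -0.50 ± 0.34, -0.63 ± 0.34 and 0.43 ± 0.18 (± SE). These calls depended on labelled knockout replicate 4, the library with the highest Fgf21 and Gdf15 of its group: without it, edgeR's adjusted p passed for Fgf21 at -0.95 (adjusted p 0.017), for Gdf15 at -1.11 (adjusted p 0.00378) and for Il6ra at 0.56 (adjusted p 0.0117). Hepatocyte markers moved with this contrast: 6 of 9 were higher in labelled knockouts, with summed levels of 103178 to 117923 CPM against 72515 to 98355 CPM, and 4 of 6 stellate cell and fibroblast markers were lower (349.6 to 471.7 CPM against 502.1 to 734.4 CPM). Blood markers summed to 804.4, 616.4 and 815.3 CPM in labelled knockout replicates 3, 4 and 5 and to 163.9 to 186 CPM in the other 3. Their part in the members' changes was not tested.

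In HFCF males no member passed the test. Afm, for example, changed by 0.08 ± 0.11 and Ahsg by 0.16 ± 0.08 on the log2 scale (± SE), and the largest estimate was that of Enho, -0.63 ± 0.37. By edgeR 0 of 9 members were called, 0 had an unadjusted p under 0.05, and the DESeq2 Wald test called 0, where edgeR called 2.21% of all 14685 genes. In the test of the difference itself, the labelled knockout effect (HFCF minus HF) was lower on HFCF for Enho, at -2.28 (SE 0.47, adjusted p 0.0137) on the log2 scale, for Ahsg, at -0.39 (SE 0.10, adjusted p 0.0427), and for Fetub, at -0.56 (SE 0.14, adjusted p 0.036). These 3 of 9 members compare with 0.570% of all genes called lower in that test. Enho kept the call in all 24 fits with 1 library left out, Ahsg in 7 (adjusted p up to 0.116) and Fetub in 6 (up to 0.0874). With all groups in one fit none of the 3 passed, at adjusted p 0.0502 for Enho, 0.404 for Ahsg and 0.336 for Fetub. With no filter on low counts Ahsg (0.118) and Fetub (0.0517) were lost, and Ahsg also with DESeq2 size factors (0.0526), while Enho passed in both. Afm had a difference of -0.54 (SE 0.15, adjusted p 0.058) by edgeR, which was not called; it passed with the Wald test (adjusted p 0.0239), and by edgeR without HF control replicate 2, at -0.60 (adjusted p 0.0275), or HFCF control replicate 4, at -0.59 (adjusted p 0.036).

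In females, no member passed edgeR's test between labelled knockouts and controls on any diet. On LF, edgeR called 0 of 9 members (1 at an unadjusted p under 0.05, DESeq2 Wald 0) and 0% of all genes, of which 355 had an unadjusted p under 0.05. On HF it called 0 members (2 at an unadjusted p under 0.05) and 0% of all genes, of which 1135 had an unadjusted p under 0.05. There Inhbe was lower in all 4 labelled knockouts than in all 4 controls, at a log2 change of -0.56 (SE 0.12, adjusted p 0.463), and was the 1 member that the DESeq2 Wald test called. Afm was higher in all 4 labelled knockouts, at 0.34 (SE 0.12, adjusted p 0.595). These 2 of 9 members did not overlap, against 5.27% of all genes. On HFCF edgeR called 0 members (1 at an unadjusted p under 0.05) and 0.0534% of all genes. Lect2 there was higher in all 4 labelled knockouts than in all 4 controls, by 0.63 (SE 0.13, adjusted p 0.208), and was the 1 member called by the Wald test, and by edgeR with all groups in one fit (adjusted p 0.019). It was 1 of 9 members without overlap, against 5.63% of all genes. The share of all genes that the Wald test called is not given here for any diet. Its calls of Inhbe and Lect2 therefore cannot be set against edgeR's shares. On data simulated with the sizes and means of HF females, the Wald test gave 28 false calls and edgeR 8.

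The size of the labelled knockout effect was not shown to differ between the sexes, nor between diets in females. Tested as a difference of effects by edgeR, males minus females on HF gave 1.12 ± 0.45 for Enho and 0.57 ± 0.17 for Lect2 on the log2 scale (± SE), with 0 of 9 members called (3 at an unadjusted p under 0.05, Wald 0) and 0% of all genes, of which 1590 had an unadjusted p under 0.05. Without HF control female replicate 1, Lect2 alone passed, at 0.65 (adjusted p 0.0414) by edgeR. On HFCF the sexes differed in effect for 0 members (3 at an unadjusted p under 0.05, Wald 0) and 0% of all genes (1515 at an unadjusted p under 0.05). In females, HFCF minus HF gave 0 members (2 at an unadjusted p under 0.05, Wald 0) and 0% of all genes (667 at an unadjusted p under 0.05), and HF minus LF gave 0 members (1 at an unadjusted p under 0.05, Wald 0) and 0% of all genes (554 at an unadjusted p under 0.05), all by edgeR.

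Between the HFCF and HF diets, Afm and Il6ra were called lower on HFCF in all 4 contrasts, Enho and Ahsg in 3 and in some of them Fetub, Lect2 and Inhbe, and no member was called higher on HFCF in either sex. In control males Afm fell by 0.52 on the log2 scale (SE 0.13, adjusted p 0.00946), Il6ra by 0.42 (adjusted p 0.0472) and Ahsg by 0.26 (adjusted p 0.0408), so 3 of 9 members were lower where 9.31% of all genes tested were called lower. Enho, at -0.55 (SE 0.38, adjusted p 0.327), Fetub, at -0.12 (SE 0.12, adjusted p 0.488), and Lect2, at -0.18 (SE 0.08, adjusted p 0.102), were not called in control males. The groups overlapped for all 9 members, and of the 12 fits with 1 library left out Afm was called in 12, Ahsg in 5 and Il6ra in 4 (adjusted p up to 0.0962 and 0.102). All groups in one fit lost Ahsg (0.0761) and Il6ra (0.0789), no filter lost Ahsg (0.0673), and a minimum of 10 counts in every library lost Il6ra (0.0549). Lect2 passed as lower without HFCF control replicate 1, at -0.23 (adjusted p 0.0155). In labelled knockout males Enho fell by 2.82 (SE 0.22, adjusted p 7.61e-07), Afm by 1.06, Fetub by 0.68, Ahsg by 0.65, Il6ra by 0.62 and Lect2 by 0.59 on the log2 scale. All 6 of these 9 members were lower and kept their calls in all 12 such fits, where 20.0% of all genes were called lower. Enho, Ahsg, Fetub and Afm did not overlap between the diets, nor did 19.1% of all genes. The test of the difference given above for Enho, Ahsg and Fetub is also the test that their fall differed between labelled knockout and control males, since both ask about the same 4 groups. The diet contrasts and the labelled knockout contrasts share these libraries, so their values stand side by side and are not independent. Fgf21 and Gdf15 were not called with all libraries, and without HF labelled knockout replicate 4 both were higher on HFCF, at 0.95 (adjusted p 0.00628) and 0.79 (adjusted p 0.00463), both by edgeR.

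In females the same diet contrast gave 7 members lower in controls. Enho fell by 2.74 (SE 0.35, adjusted p 0.00448) and Il6ra by 1.15 (SE 0.17, adjusted p 0.00546). Fetub fell by 0.83, Ahsg by 0.77, Lect2 by 0.76, Afm by 0.73 and Inhbe by 0.55 on the log2 scale. Of all genes 13.8% were called lower. Of the 7, all except Fetub were without overlap between the groups, against 29.4% of all genes, and all except Inhbe, lost without HFCF control replicate 1 (adjusted p 0.0529), kept their calls in each of the 8 leave-one-library-out fits; Inhbe was also lost with all groups in one fit (adjusted p 0.0757). In labelled knockout females 3 members were lower: Enho by 2.79 (adjusted p 0.00159), Il6ra by 1.54 (adjusted p 0.00108) and Afm by 0.67 (adjusted p 0.0351), where 6.01% of all genes were. These 3 did not overlap, against 19.7% of all genes. Enho and Il6ra kept their calls in all 8 such fits, and Afm in 2 (adjusted p up to 0.105). Ahsg, at -0.56 (SE 0.20, adjusted p 0.084), and Fetub, at -0.65 (SE 0.22, adjusted p 0.0779), were not called by edgeR, but were with all libraries by the Wald test (adjusted p 0.0218 and 0.0303) and with all groups in one fit (0.00291 and 0.00641). Without HFCF labelled knockout replicate 1, edgeR also called Ahsg, at -0.77 (adjusted p 0.0017), and Fetub, at -0.93 (adjusted p 0.000813), as lower and Fgf21 as higher, at 1.39 (adjusted p 0.0159).

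Markers of liver cell types moved with the HFCF diet as well. Of 9 hepatocyte markers 5 were lower in control males, 7 in labelled knockout males, 6 in control females and 0 in labelled knockout females. Their summed level was 47217 to 74734 CPM against 72515 to 98355 CPM in control males, 63428 to 74455 CPM against 103178 to 117923 CPM in labelled knockout males, 61581 to 77406 CPM against 100644 to 121811 CPM in control females and 67445 to 120270 CPM against 110573 to 131297 CPM in labelled knockout females, HFCF first. All 5 cholangiocyte markers were higher in each of these 4 contrasts, with summed levels of 158.2 to 668.3 CPM in the HFCF males and 58.63 to 217.5 CPM in the HF males. Of 10 macrophage markers 8, 8, 8 and 3 were higher in the same order, with sums of 629.8 to 1276 CPM against 390.2 to 672.5 CPM, 889.6 to 1460 CPM against 503.6 to 729.7 CPM, 1260 to 1561 CPM against 428.4 to 724.8 CPM and 1050 to 1375 CPM against 489 to 1094 CPM. The 4 contrasts use different libraries, and the part of the cell makeup in the members' falls was not tested. The difference between the sexes in this diet effect was called for 0 of 9 members in controls by edgeR (5 at an unadjusted p under 0.05), where edgeR called 0.00646% of all genes. The Wald test called 2, namely Enho and Lect2, and its share of all genes is not given here. Without HF control female replicate 1, 5 members passed: the fall was larger in females by 2.43 (adjusted p 0.0114) for Enho, 0.91 (adjusted p 0.012) for Il6ra, 0.87 (adjusted p 0.0158) for Fetub, 0.68 (adjusted p 0.00248) for Lect2 and 0.63 (adjusted p 0.0218) for Ahsg on the log2 scale. The share of all genes called in that fit is not given here, so these 5 cannot be set against the 0.00646%. In labelled knockouts 0 members were called by edgeR (3 at an unadjusted p under 0.05, Wald 0) with 0.0130% of all genes, and Il6ra passed without HF labelled knockout male replicate 6, at 1.10 (adjusted p 0.0251).

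Between the HF and LF diets in females, 1 of 9 members was called in controls and 0 in labelled knockouts. In controls Lect2 was the 1 member called, higher on HF by 0.62 (SE 0.12, adjusted p 0.0479) on the log2 scale where 0.443% of all genes were called higher; the call held in 1 of 8 fits with a library left out (adjusted p up to 0.162), and edgeR called Il6ra as well, at 0.85 (adjusted p 0.0397), without HF control replicate 1. The DESeq2 Wald test called Lect2 and Il6ra with all libraries. Lect2, Inhbe and Afm did not overlap between these diets, nor did 10.0% of all genes. In labelled knockouts edgeR called 0 of 9 members (3 at an unadjusted p under 0.05, Wald 0) and 0.155% of all genes. There Il6ra gave 0.72 (SE 0.22, adjusted p 0.196) with no overlap, against 8.46% of all genes, and Enho 0.69 (SE 0.25, adjusted p 0.263), neither of which was called.

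Set against LF, the HFCF diet gave lower Enho, Ahsg, Fetub, Afm and Il6ra in both female genotypes, in comparisons that share its HFCF libraries with those above. In control females Enho fell by 2.33, Fetub by 1.17, Afm by 1.06 (adjusted p 0.00031), Ahsg by 1.02 and Il6ra by 0.49 (adjusted p 0.0137) on the log2 scale. Of all genes 16.8% were called lower. None of these 5 members overlapped between the diets, against 33.9% of all genes without overlap. Il6ra lost its call without HFCF control replicate 2 (adjusted p 0.0509) and with all groups in one fit (0.0748). Gdf15, at 0.91 (SE 0.38, adjusted p 0.0885), was called by the Wald test (adjusted p 0.0402), and by edgeR without LF control replicate 1, at 1.38 (adjusted p 0.00588), or HFCF control replicate 3, at 1.16 (adjusted p 0.0298). In labelled knockout females Gdf15 was the 1 member higher on HFCF, by 1.43 (SE 0.34, adjusted p 0.0189), where 8.26% of all genes were higher. Gdf15 and Enho did not overlap, against 17.2% of all genes. Enho fell by 2.08 (adjusted p 0.00348), Fetub by 0.88, Il6ra by 0.81, Ahsg by 0.78 and Afm by 0.64, so 5 members were lower where 3.74% of all genes were. Enho kept its call in all 8 fits with a library left out, Gdf15 in 6, Il6ra in 3, Ahsg and Fetub in 2 and Afm in 1. Gdf15 lost it without HFCF labelled knockout replicate 2 or 4 (adjusted p up to 0.0633). Il6ra was also lost with a minimum of 10 counts in every library (0.0543). For Il6ra, Ahsg, Fetub and Afm the adjusted p with a library left out reached 0.132, 0.129, 0.114 and 0.134. Without HFCF labelled knockout replicate 1, Fgf21 passed as higher, at 0.44 (adjusted p 0.0417). Cell type markers moved with these contrasts too. In control females 7 of 9 hepatocyte markers were lower (61581 to 77406 CPM against 99472 to 124346 CPM, HFCF first), and 8 of 10 macrophage (1260 to 1561 CPM against 429.4 to 895.8 CPM), 5 of 5 cholangiocyte (303.9 to 547.3 CPM against 70.31 to 112.1 CPM) and 5 of 6 stellate cell and fibroblast markers (842.5 to 1314 CPM against 313.8 to 500.6 CPM) were higher. In labelled knockout females 1 hepatocyte marker was lower (67445 to 120270 CPM against 108617 to 125253 CPM), and 8 macrophage (1050 to 1375 CPM against 498.4 to 834.7 CPM), 5 cholangiocyte (245.1 to 554.1 CPM against 63.2 to 171.7 CPM) and 3 stellate cell and fibroblast markers (670.5 to 1073 CPM against 257.2 to 488.3 CPM) were higher. Their part in the members' changes was not tested.

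On the HF diet, Enho, Il6ra, Ahsg, Fetub and Afm were lower in males than in females in both controls and labelled knockouts, and Lect2 in controls. Among controls Enho was lower in males, at a log2 change of -2.37 (SE 0.33, adjusted p 0.000987). Il6ra changed by -1.10, Ahsg by -0.89, Fetub by -0.69, Lect2 by -0.69 and Afm by -0.66, so that 6 members were lower in males where 9.58% of all genes were. These 6 were called in all 10 fits with a library left out. Gdf15 was higher in males by 0.93 (SE 0.28, adjusted p 0.0393), 1 of 9 members where 8.52% of all genes were higher, with overlapping groups and a call in 4 of the 10 fits (adjusted p up to 0.117); it was also lost with all groups in one fit (0.0924). Enho, Ahsg, Lect2 and Il6ra did not overlap between the control sexes, nor did 12.4% of all genes. Of 9 hepatocyte markers 1 was higher and 2 were lower in the control males, with summed levels of 72515 to 98355 CPM against 100644 to 121811 CPM in control females, and their part was not tested. Among labelled knockouts on HF, 5 members were lower in males, Enho at -1.25 ± 0.24, Il6ra at -0.84 ± 0.21, Ahsg at -0.47 ± 0.07, Afm at -0.38 ± 0.07 and Fetub at -0.36 ± 0.09 (log2 change ± SE), where 7.02% of all genes were. None of these 5 overlapped between the sexes, against 12.9% of all genes without overlap, and Fetub lost its call without HF labelled knockout female replicate 4 (adjusted p 0.0547) and with all groups in one fit (0.129).

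On the HFCF diet 0 of 9 members were called between the sexes in controls and 3 in labelled knockouts. Among controls edgeR found 4 members at an unadjusted p under 0.05 and called 2.63% of all genes. The DESeq2 Wald test called Ahsg and Afm, and its share of all genes is not given here. Ahsg was lower in all 6 males than in all 4 females, at -0.37 (SE 0.10, adjusted p 0.0951), 1 of 9 members without overlap against 5.36% of all genes. Afm gave -0.45 (SE 0.13, adjusted p 0.108) and passed without HFCF control male replicate 1, at -0.55 (adjusted p 0.00769), and with all groups in one fit (adjusted p 0.0471), by edgeR. Among labelled knockouts 3 members were lower in males, Enho at -1.29 (SE 0.28, adjusted p 0.0219), Afm at -0.77 (SE 0.15, adjusted p 0.0144) and Lect2 at -0.57 (SE 0.14, adjusted p 0.0304), where 1.99% of all genes were. Afm was called in all 10 fits with a library left out, Enho in 9 and Lect2 in 4 (adjusted p up to 0.0775). Enho lost its call without labelled knockout male replicate 2 (adjusted p 0.0553). Ahsg and Afm did not overlap between the sexes, nor did 9.70% of all genes. Ahsg, at -0.56 (SE 0.16, adjusted p 0.0609) by edgeR, was called with all libraries by the Wald test (adjusted p 0.00765) and with all groups in one fit (0.00295), and it passed without labelled knockout female replicate 1, at -0.33 (adjusted p 0.0418), or replicate 4, at -0.68 (adjusted p 0.0359). The tests of a sex difference in the diet effect, given above, are also the tests of whether these sex differences changed with diet.

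**Figure D2:**
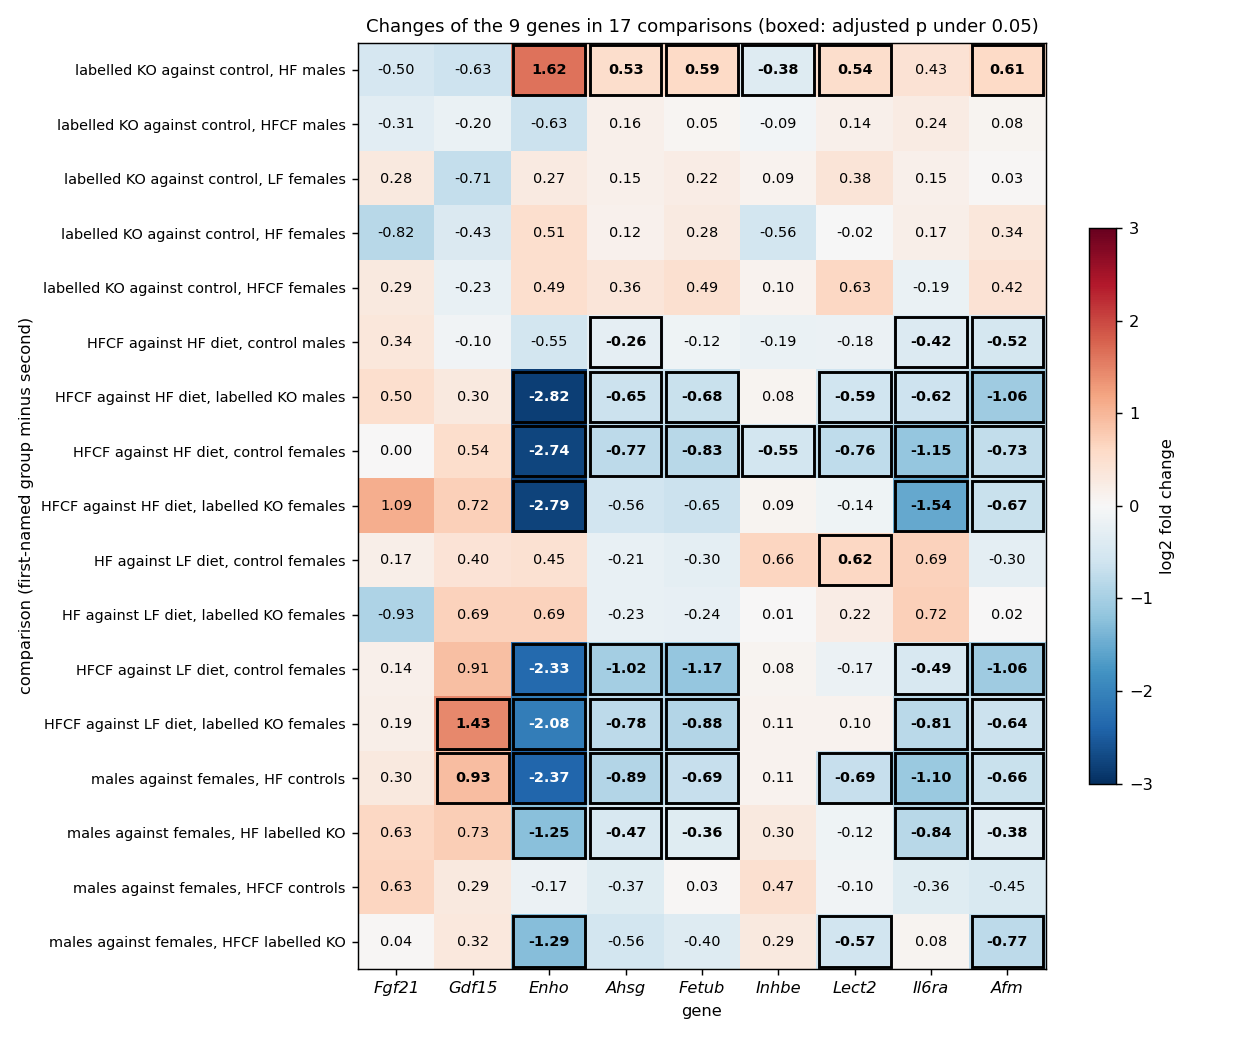
Rows are the 17 comparisons between groups and columns the 9 genes; each cell gives the log2 fold change (first-named group minus second), coloured from blue (lower) to red (higher), and boxes mark an edgeR adjusted p under 0.05. The called falls of Enho in the HFCF diet comparisons run from -2.08 to -2.82. In HF males Ahsg, Fetub, Lect2, Enho and Afm were called higher in labelled knockouts. Lect2 was also called higher on HF against LF in control females.

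Within groups, Ahsg, Fetub and Afm were positively correlated from library to library. Correlations were computed over the 48 libraries on deviations of log2(CPM + 0.5) from the group means, for 36 pairs of members, with p from 100000 permutations within groups adjusted by the Benjamini-Hochberg method over the 36. For Ahsg and Fetub Pearson's r was 0.852 and Spearman's rho 0.801 (permutation p 1e-05 and 1e-05, adjusted 0.00012 and 0.00018), and r was 0.791 without the 2 libraries farthest from the median. The unadjusted p of 1e-05 is the smallest that these permutations can give. The 2 libraries left out, here and below, were those farthest from the median deviation of 1 gene of the pair. That gene is the earlier in the order Fgf21, Gdf15, Enho, Ahsg, Fetub, Inhbe, Lect2, Il6ra, Afm. The other gene was not used to choose them. For Fetub and Afm Pearson's r was 0.845 and Spearman's rho 0.749 (permutation p 1e-05 and 1e-05, adjusted 0.00012 and 0.00018), and r was 0.776 without the 2 libraries farthest from the median. Afm was also related to Ahsg (r 0.701, permutation p 1e-05, adjusted 0.00012; rho 0.658, permutation p 2e-05, adjusted 0.00024; r 0.581 without the 2 farthest libraries) and to Lect2 (r 0.595, permutation p 3e-05, adjusted 0.00027; rho 0.604, permutation p 5e-05, adjusted 0.00045; r 0.592 without the 2 farthest libraries), on another chromosome from each. The per-kilobase ratio of Ahsg to Fetub had group means between 10.7 ± 1.12 (SD, n = 6) in HFCF control males and 14.2 ± 2.01 (SD, n = 4) in HFCF control females. All points share library depth and the cell makeup of the piece of liver, and the part of either was not tested.

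Fgf21 and Gdf15 were each negatively correlated with Ahsg, Fetub and Afm. For Fgf21 and Afm Pearson's r was -0.616 and Spearman's rho -0.530 (permutation p 0.00011 and 0.00059, adjusted 0.00078 and 0.00354), and r was -0.558 without the 2 libraries farthest from the median. For Gdf15 and Afm Pearson's r was -0.453 and Spearman's rho -0.482 (permutation p 0.00016 and 0.00113, adjusted 0.000823 and 0.0058), and r was -0.457 without the 2 libraries farthest from the median. Fgf21 was positively correlated with Gdf15 (r 0.425, permutation p 0.0111, adjusted 0.0266; rho 0.417, permutation p 0.00831, adjusted 0.0228; r 0.302 without the 2 farthest libraries). It was also positively correlated with Inhbe (r 0.455, permutation p 0.00183, adjusted 0.00732). For that pair Spearman's rho was 0.485 (permutation p 0.00129, adjusted 0.0058), and r was 0.423 without the 2 farthest libraries. No relation of Gdf15 and Inhbe passed the test (r -0.130, permutation p 0.479, adjusted 0.575; rho -0.041, permutation p 0.804, adjusted 0.867; r -0.248 without the 2 farthest libraries). Enho was related to Ahsg (r 0.507, permutation p 0.00266, adjusted 0.00906; rho 0.482, permutation p 0.0042, adjusted 0.0151; r 0.541 without the 2 farthest libraries), and no relation of Enho and Afm passed (r 0.027, permutation p 0.892, adjusted 0.917; rho 0.061, permutation p 0.726, adjusted 0.816; r 0.207 without the 2 farthest libraries). In all, 10 pairs were positive and 7 negative at an adjusted p under 0.05 for r.

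**Figure D3:**
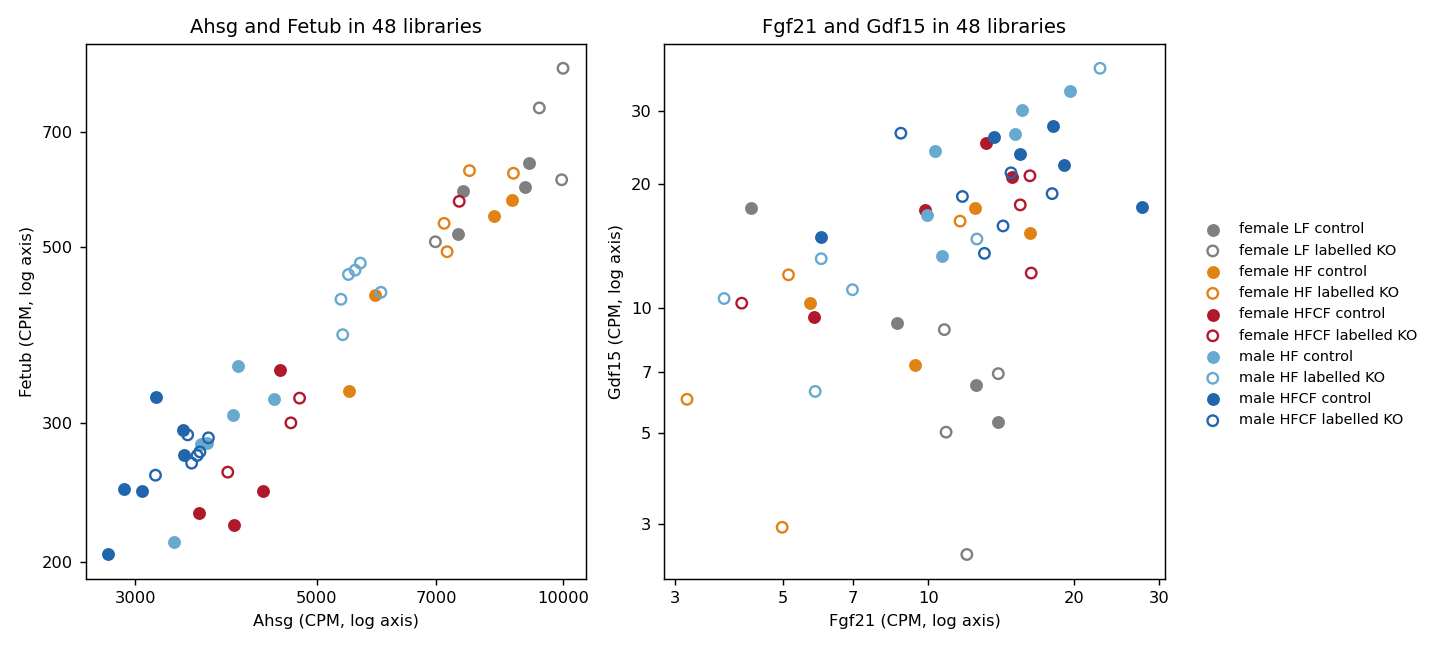
Left, Fetub against Ahsg, and right, Gdf15 against Fgf21, in CPM on log axes; each point is 1 of 48 libraries, filled for controls and open for labelled knockouts, coloured by sex and diet. The fetuin points follow a narrow band across all groups, with a within-group r of 0.852, and the hormone points scatter widely, with a within-group r of 0.425.

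The genes whose 10 group means of log2 CPM were most like each member's were ranked among 12351 genes by Pearson's r, given here as a description. Enho was most like Mrm3 (0.995), Smarcd2 (0.992) and Dmac2 (0.985). Ahsg was most like Churc1 (0.994), Serpinc1 (0.994), which encodes antithrombin, and Apom (0.993). Fetub was most like Aup1 (0.996), Scnn1a (0.993) and Ddt (0.991). Afm was most like Rassf7 (0.993), Itih1 (0.992) and F2 (0.991), which encodes prothrombin. Within groups F2 also tracked Afm (r 0.874 over 48 libraries), whereas Mrm3 and Enho gave 0.275. Gdf15 was most like Dennd6a (0.986), Il6ra most like Btbd2 (0.989), Inhbe most like Ubxn8 (0.980), Lect2 most like Znhit6 (0.974) and Fgf21 most like Dph6 (0.918). Each r rests on 10 points that the study groups share.

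The receptors and partners of the members were taken from a list of 21 genes. In HF males the list gave 3 of 17 higher and 4 lower (median log2 change 0.06) in labelled knockouts. Fgfr4 changed by 0.47 and Klb, which encodes the β-Klotho co-receptor of Fgf21, by 0.36, while Mmp14 changed by -0.24 and Adam10, a protease that can release the interleukin-6 receptor, by -0.21, all on the log2 scale. In HFCF males Klb was the 1 list gene of 17 called, at 0.46 (SE 0.09, adjusted p 0.0168) by edgeR. On HFCF against HF, the list gave 4 of 17 higher and 5 lower (median log2 change -0.004) in control males and 6 of 17 higher and 4 lower (median log2 change 0.05) in labelled knockout males. Fgfr1, the receptor that Fgf21 uses on fat, changed by 1.01 and 1.05 in these males, and Klb by -0.51 and -0.42. In control females the list gave 8 of 18 higher and 3 lower (median log2 change -0.05), with Adam17 at 0.60, Il6st, the signalling partner of Il6ra, at 0.37, Tie1 at 0.73 and Met at -0.37. In labelled knockout females it gave 1 of 17 higher and 3 lower (median log2 change -0.04), with Insr at -0.59 and Met at -0.41. The median log2 change of all genes tested lay between -0.020 and 0.006 in the HF and HFCF male contrasts and the 4 HFCF against HF contrasts used for this and the following lists. In the latter, 13% of all genes were called higher in control males, 21.6% in labelled knockout males, 16.9% in control females and 8.44% in labelled knockout females, beside the shares called lower given above.

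The integrated stress response list held 19 genes of the ATF4 and CHOP program, to which Fgf21, Gdf15 and Inhbe are known to respond. In HF males the list gave 2 of 17 higher and 4 lower (median log2 change -0.29) in labelled knockouts. Atf3 changed by -1.37, Vldlr by -0.73 and Trib3 by -0.68, and Shmt2 by 0.28. Vldlr, a lipoprotein receptor, is also known as a PPARγ target. In HFCF males it gave 0 of 19 higher and 2 lower (median log2 change -0.14), namely Trib3 at -0.68 and Chac1 at -1.58. HFCF against HF gave 5 of 18 higher and 1 lower (median log2 change 0.19) in control males, 5 of 17 higher and 3 lower (median log2 change 0.26) in labelled knockout males, 5 of 18 higher and 1 lower (median log2 change 0.39) in control females and 5 of 17 higher and 1 lower (median log2 change 0.59) in labelled knockout females. Psat1, an enzyme of serine synthesis, was called higher in all 4, with log2 changes of 0.96, 1.45, 1.79 and 1.74. Stc2 changed by 1.38 in control males, 0.60 in labelled knockout males, 2.04 in control females and 2.45 in labelled knockout females. Ddit3, which encodes CHOP, was called in the labelled knockout females, at 0.64. Fgf21, Gdf15 and Inhbe themselves were not called higher in any of these 4 contrasts with all libraries, their estimates in labelled knockout females being 1.09 ± 0.46, 0.72 ± 0.44 and 0.09 ± 0.16 (± SE).

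**Figure D4:**
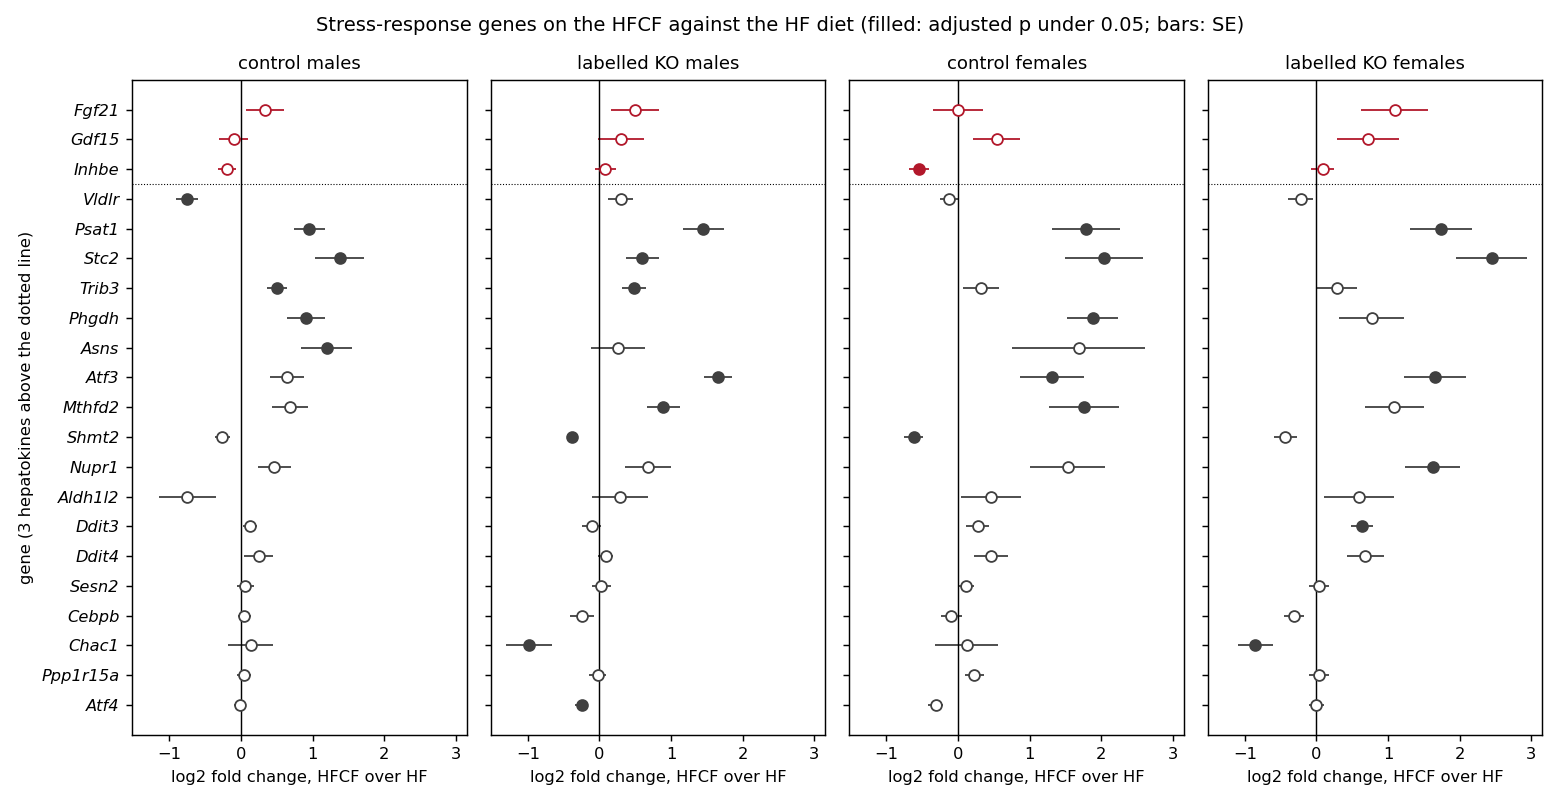
Points are log2 fold changes of the integrated stress response genes and of Fgf21, Gdf15 and Inhbe in the 4 HFCF against HF contrasts; bars are SE, filled points have an adjusted p under 0.05, the 3 hormones stand in red above the dotted line, and a gene not tested in a comparison has no point. Psat1 lies above 0 in all 4 HFCF against HF contrasts, from 0.96 to 1.79, while Inhbe lies between -0.55 and 0.09.

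Among 20 PPARα and ChREBP regulators and targets, genes of the 2 other known inputs to Fgf21, labelled knockout males on HF gave 0 of 20 higher and 8 lower (median log2 change -0.35). Vnn1 changed by -1.67, Pdk4 by -1.84 and Txnip by -0.88 on the log2 scale. Vnn1 was the 1 list gene called in HFCF males (-1.33) and in HFCF females (-1.03). On HFCF against HF, control males gave 0 of 20 higher and 8 lower (median log2 change -0.31), with Ppara at -0.54 and Pklr at -0.74, and control females gave 2 of 20 higher and 5 lower (median log2 change -0.34). Labelled knockout males gave 4 of 20 higher and 3 lower (median log2 change 0.02) and labelled knockout females 2 of 20 higher and 1 lower (median log2 change -0.13); Pdk4 was called higher in both, at 1.53 and 1.53. Males against females on HF gave 1 of 20 higher and 6 lower (median log2 change -0.21) in controls, with Cyp4a10 at -1.26.

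A list of 30 other secreted signals of liver moved in both directions. In HF males the list gave 10 of 30 higher and 4 lower (median log2 change 0.21) in labelled knockouts; Igf1 changed by 0.40 and Gpnmb, a glycoprotein also made by lipid-laden macrophages, by -1.76. In HFCF males Hamp, the iron hormone hepcidin, changed by -1.85 and Smoc1 by 0.24, the 2 of 30 called. HFCF against HF gave 5 of 30 higher and 7 lower (median log2 change -0.04) in control males, 4 of 30 higher and 14 lower (median log2 change -0.21) in labelled knockout males, 7 of 30 higher and 10 lower (median log2 change -0.36) in control females and 4 of 30 higher and 3 lower (median log2 change -0.21) in labelled knockout females. Agt, which encodes angiotensinogen, fell in all 4, by 0.60, 1.08, 1.15 and 0.82, and Gpnmb rose by 2.69, 3.79, 3.37 and 5.53 on the log2 scale.

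Relatives and chromosomal neighbours of the members formed a list of 18 genes. In HF males the list gave 9 of 16 higher and 0 lower (median log2 change 0.33) in labelled knockouts: Hrg, beside Fetub, changed by 0.38, Afp, beside Afm, by 0.56, and Inhbc, beside Inhbe, by 0.50, while Inhbe itself fell by 0.38 on the log2 scale. In HFCF males Afp was the 1 list gene called, at 0.58. In the interaction of diet and labelled knockout in males Inhbc was called, at -0.64 (SE 0.14, adjusted p 0.0176) by edgeR, and Inhbe gave 0.27 (SE 0.20, adjusted p 0.529). On HFCF against HF, Alb fell in control males by 0.66, in labelled knockout males by 0.77 and in control females by 0.66 on the log2 scale. Lifr, a cytokine receptor related to the interleukin-6 receptor complex, fell by 0.66 in labelled knockout males and 0.52 and 0.71 in control and labelled knockout females. On this diet contrast the list gave 3 of 16 higher and 5 lower (median log2 change -0.01) in control males, 1 of 16 higher and 10 lower (median log2 change -0.43) in labelled knockout males, 3 of 16 higher and 9 lower (median log2 change -0.39) in control females and 2 of 16 higher and 3 lower (median log2 change -0.34) in labelled knockout females.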

How the data were processed

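RNA-seq of 48 mouse liver samples was deposited as 11 tables, each covering 1 comparison. The deposited values used here are raw read counts of each gene in each library, not normalized, per the file headers. The submitters' processing notes name STAR 2.6.1, HTSeq 0.6.1, DESeq2 and the build GRCm38 (mm10). Per the labels, libraries were not strand specific, with inserts of 250 to 300 bp. The gene length in the deposited tables, in bases, was used for levels per kilobase. The tables list genes with at least 2 reads over their libraries. The tables were joined by gene identifier into 29221 genes by 48 libraries: 1341082 repeated values were compared and 0 differed. A gene missing from a table took the count that another table gave for the same library. It was set to 0 for a library only where no table with that library listed it. No column was left without a sample (0 columns), and 0 rows lacked a gene symbol.

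Depth ran from 15338239 to 22072884 reads on genes per library (median 17304085). No 2 libraries of a group were alike within counting noise: the lowest chi-square per degree of freedom over 96 within-group pairs was 5.43. TMM factors and CPM were computed with edgeR 4.0.16 (R 4.3.3). The factors ran from 0.8868 to 1.197 in HFCF libraries and from 0.8845 to 1.053 in LF and HF libraries. In control females and labelled knockout males every HFCF factor exceeded every HF factor, while in the other groups these ranges overlapped. A higher factor gives a lower CPM, and no test was run without TMM or DESeq2 size factors. The 17 comparisons were each fitted to their 2 groups, and the 7 differences of effects to their 4 groups as an interaction, after filterByExpr, by the quasi-likelihood F test of edgeR and Benjamini-Hochberg adjustment over all genes tested. A gene is called at an adjusted p under 0.05. The SE is the absolute log2 change divided by the square root of F. The fit was tested on simulated data with 200 genes changed by a log2 change of 1, drawn only from genes above a minimum mean read count. With the sizes and means of HF males 197 were recovered, with 12 false calls. With those of HF females 179 were recovered, with 8 false calls. On the same simulated data DESeq2's Wald test gave more false calls. It recovered 198 with 26 false calls for HF males, and 187 with 28 false calls for HF females. Recovery of smaller changes, or of genes with few reads such as Enho, was not tested. Alternatives were DESeq2 1.42.0 size factors, its Wald test, a filter of 10 counts per library or none, a minimum absolute log2 change of 1, 1 fit over all groups, a block for the replicate number, and the omission of single libraries.

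The members, gene lists, comparisons and alternatives were chosen with earlier results of these data known, and the correlations between pairs of members were added after the values were seen. The genes named are the 9 members and up to 4 called genes per list and comparison by adjusted p. The 3 genes most like each member (mean of at least 1 CPM, 0.5 added before the log2) are named too. Pparg, Cidec and Cidea are named as label checks. A few further list genes were named after their values were seen, for their known role or to follow 1 gene across comparisons. These are Igf1, Agt, Hamp, Afp, Alb, Lifr, Gpnmb, Stc2, Psat1, Ddit3, Pdk4 and others. Marker sums are the summed CPM of the marker genes of a cell type. Some results of the gene lists and promoters are not reported here.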

Additional observations from a re-analysis of the deposited data

Results flagged for a closer look

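In 5 of 90 sets of 1 gene in 1 group, a single library lay apart from the others by Dixon's test at 95%; chance gives about 1 in 20 groups. Fgf21 in HFCF labelled knockout females was 4.12 CPM in replicate 1 and 15.5 to 16.3 CPM in the other 3. In the same library Afm was 310.6 CPM, where the other 3 measured 168.4 to 190.2 CPM. Gdf15 in HF labelled knockout males was 38.1 CPM in replicate 4 and 6.29 to 14.7 CPM in the other 5. Lect2 in LF labelled knockout females was 131.7 CPM in replicate 3 and 154.5 to 155.4 CPM in the others. Afm in HF labelled knockout females was 366.1 CPM in replicate 4 and 322.1 to 327.1 CPM in the others.

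By the interaction test in males, 3 members had labelled knockout effects that differed between HFCF and HF: Enho with a log2 difference of -2.28, Ahsg with -0.39 and Fetub with -0.56. These calls were not stable: none of the 3 passed with all groups in one fit, Enho alone passed with no filter on low counts, and Ahsg and Fetub were called in 7 and 6 of 24 fits with a library left out.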

How the results depend on the processing

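Of 55 results in which a member was called, none reversed under any alternative run. The DESeq2 Wald test kept 55, DESeq2 size factors 53, no filter 52, all groups in one fit 45 and the replicate block 35. The minimum of 10 counts kept 50 of 52, and an absolute log2 change of at least 1 kept 17 of 52. Fits with a library left out kept 463 of 578. Pairing by replicate number was not shown: in 0 of 17 comparisons did every same-numbered pair correlate above 0.1. That rule cannot exclude pairing of some libraries. Between labelled knockouts and controls, same-numbered pairs ran from -0.170 to 0.461 in HF females and from -0.211 to 0.397 in LF females. The counts of called members that moved by over 1.5 times are these, given without the share of all genes under each alternative. With an absolute log2 change of at least 1 they were 1 for labelled knockout in HF males, 0, 2 and 2 for HFCF against HF in control males, labelled knockout males and control females, 0 for HF against LF and 2 for HFCF against LF in labelled knockout females, and 2, 1 and 1 for the sexes in HF controls, HF labelled knockouts and HFCF labelled knockouts. With the Wald test they were 1 each for labelled knockout in HF and HFCF females, 5 for HFCF against HF in labelled knockout females, 2 for HF against LF in controls, 2 for the sexes in HFCF controls and 2 for the sex difference of the diet effect in controls. All groups in one fit gave 1 for labelled knockout in HFCF females, 1 for HFCF against HF in control males and 5 in labelled knockout females, 1 for the sexes in HFCF controls and 0 for the diet difference of the labelled knockout effect in males, for which no filter gave 1. The replicate block gave 1 and 0 for HFCF against HF in control males and control females, 0 for HF against LF in controls, 2 for HFCF against LF in labelled knockouts and 0 for the sexes in HFCF labelled knockouts; a lost call under the block is not read as a weaker effect. With 1 library left out the counts ran 5 to 9 for labelled knockout in HF males and 0 to 0 in the other 4 labelled knockout comparisons; 1 to 4, 6 to 8, 6 to 7 and 2 to 6 for HFCF against HF in control males, labelled knockout males, control females and labelled knockout females; 0 to 2 and 0 to 0 for HF against LF, 4 to 6 and 1 to 7 for HFCF against LF, in control and labelled knockout females; 6 to 7, 4 to 5, 0 to 1 and 1 to 4 for the sexes in HF controls, HF labelled knockouts, HFCF controls and HFCF labelled knockouts; and 1 to 4 for the diet difference in males, 0 to 1 for the sex difference of the labelled knockout effect on HF, 0 to 5 and 0 to 1 for the sex difference of the diet effect in controls and labelled knockouts, and 0 to 0 for the other differences. Levels were also computed from library totals without TMM and with DESeq2 size factors. Over both scalings together, 169 of 180 levels stayed within 1 SD. The other 11 all came from library totals without TMM. Ahsg was at 5191, 3463 and 3792 CPM in HF labelled knockout, HFCF control and HFCF labelled knockout males. Fetub was at 297.4, Il6ra at 43.58 and Afm at 132.6 CPM in HFCF labelled knockout males. Il6ra was at 103.8 and 47.77 CPM in HF labelled knockout and HFCF control females. Afm was at 305.7, 306.8 and 312.2 CPM in LF control, LF labelled knockout and HF labelled knockout females. Cause was not tested for any of these. Depth limits Enho most, with as few as 11 reads in a library.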
